A study of Rattus norvegicus with 4 samples.

Results

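Visceral endoderm is the extraembryonic epithelium that wraps the early rodent embryo and feeds it before a placenta forms. It secretes carrier proteins that the liver makes later in life, and it takes up maternal protein through large receptors on its apical surface. The 10 genes described here, picked by name, cover both tasks. Apoa1, Apoa2, Apob and Apoe encode apolipoproteins, Afp encodes alpha-fetoprotein, and Ttr and Rbp4 encode the carriers of thyroid hormone and retinol. Cubn and Amn encode the 2 subunits of the cubilin-amnionless uptake receptor, and Dab2 encodes an adaptor that links such receptors to clathrin. They are 10 of the 32753 genes in the deposited tables, and each symbol matched 1 row.

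RNA came from rat embryoid bodies, cell aggregates grown from embryonic stem cells of the strain labelled DASD, at day 4 of differentiation. The groups were Kcnh2-/- (2 libraries) and wild type, WT (2 libraries). Kcnh2 encodes the voltage-gated potassium channel ERG1. Both groups had CHIR9902, PD0325901 and the ROCK inhibitor Y27632 while drops formed, the first and second of these on laminin as well, and a medium called DM on the last day. The labels give neither the altered part of Kcnh2 nor whether each genotype was 1 clone, and nothing says that replicates were separate cultures, so p-values measure only the spread between these samples, which may be technical. Values are RPKM, reads scaled to transcript length and library size. In each gene's values below, replicate 1 stands before replicate 2 of the same group.

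Kcnh2 itself was at 0.108 and 0.504 RPKM in Kcnh2-/-, against 2.61 and 1.45 RPKM in WT, a difference that did not pass (log2 difference -1.20 ± 0.43 SE, limma adjusted p = 0.980). The Y-linked gene Eif2s3y was at 0.0574 and 0.14 RPKM in Kcnh2-/-, against 153 and 135 RPKM in WT. This difference passed (log2 difference -7.04 ± 0.27 SE, limma adjusted p = 0.0163). The median of 359 X-linked protein-coding genes was higher in Kcnh2-/- by 0.60 on the log2(RPKM + 1) scale. It was 0.64 within replicate 1 and 0.59 within replicate 2. In this design, effects of the Kcnh2 alteration and of this sex-linked difference cannot be told apart. The summed RPKM of all genes also stood apart by replicate number. It was 1.09e+08 in replicate 1 and 8.93e+06 in replicate 2 of Kcnh2-/-, and 7.95e+07 and 1.17e+07 in those of WT. Of these sums, 90.3% to 99.5% lay outside protein-coding genes. The protein-coding sums did not follow the number, at 588638 and 865709 in Kcnh2-/-, against 1.02e+06 and 712153 in WT. Differences within each number are given beside the pooled ones, although no label says that equal numbers share anything. Absolute read depth is unknown.

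Visceral endoderm markers were uneven in these aggregates. Of the 27 found in the files, 19 reached the level for testing, described further on. In WT replicate 1, Krt8 was at 1567, Tmprss2 at 52.2 and Foxa2 at 38.3 RPKM, the highest library for each. In Kcnh2-/- replicate 2 the same genes were at 53.1, 1.08 and 0.231 RPKM. Tmprss2 was at 11.6 RPKM in Kcnh2-/- replicate 1 and 5.19 RPKM in WT replicate 2. Other markers were at or near 0. Afp was at 0.0248 and 0.0239 RPKM in Kcnh2-/-, against 0.142 RPKM in WT replicate 1 and a listed 0 in WT replicate 2. Hnf4a, the nuclear receptor that drives the carrier genes of this tissue in the mouse, was at 0.0318 RPKM and a listed 0 in Kcnh2-/-, against 0.162 and 0.0102 RPKM in WT. Of the 27, 6 were under 1 RPKM in all 4 libraries, among them Hnf4a, the signal Ihh, and Spink1, which was listed at 0 throughout (these were named after their values were seen). The pluripotency factor gene Pou5f1 was at 1043 and 1679 RPKM in Kcnh2-/-, against 273 and 1203 RPKM in WT, and 10 of the 11 pluripotency markers found reached the level for testing. The name visceral endoderm is used here for the genes, and which cells made their RNA was not determined.

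Promoter windows from RefSeq (build GRCr8, 250 bases before to 50 bases after the annotated start) matched 7 of the 10 genes. The windows of Ttr, the gene with the widest range on the log2(RPKM + 1) scale, of Afp, the classic marker that was near 0, and of Apoe, the most abundant of the set, are shown because they mark the extremes of the data. They lie at chr18:12218508-12218807 (plus strand), chr14:17875596-17875895 (minus strand) and chr1:88484650-88484949 (minus strand, the second of 3 windows listed for Apoe), and all read 5′ to 3′ along the gene. Capitals mark matches to the letters searched on both strands.
Ttr: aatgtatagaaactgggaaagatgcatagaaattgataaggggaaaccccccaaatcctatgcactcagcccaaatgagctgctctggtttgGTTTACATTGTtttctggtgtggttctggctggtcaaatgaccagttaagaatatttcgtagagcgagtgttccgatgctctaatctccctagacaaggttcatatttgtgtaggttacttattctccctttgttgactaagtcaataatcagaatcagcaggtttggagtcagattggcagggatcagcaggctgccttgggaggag
Afp: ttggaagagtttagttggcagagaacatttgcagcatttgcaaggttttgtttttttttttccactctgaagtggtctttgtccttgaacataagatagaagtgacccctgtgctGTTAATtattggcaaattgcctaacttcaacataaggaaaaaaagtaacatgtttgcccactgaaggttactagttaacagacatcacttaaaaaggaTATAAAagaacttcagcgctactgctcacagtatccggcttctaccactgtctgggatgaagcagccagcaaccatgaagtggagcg
Apoe: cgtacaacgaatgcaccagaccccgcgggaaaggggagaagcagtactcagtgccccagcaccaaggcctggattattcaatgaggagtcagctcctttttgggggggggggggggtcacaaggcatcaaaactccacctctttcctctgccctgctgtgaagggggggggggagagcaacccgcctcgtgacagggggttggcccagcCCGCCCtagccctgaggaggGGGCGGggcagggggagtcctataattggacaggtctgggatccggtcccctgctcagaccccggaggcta
The Ttr window held a forkhead core, GTTTAC, which is present in 8.11% of all 33469 windows, and a SOX core, ACAATG, on the opposite strand (13.2% of windows), which overlaps it by a base. In the Afp window there was an HNF1 core, GTTAAT (7.45%), and a TATA box, TATAAA (14.2%). The Apoe window shown had GGGCGG, the core of SP factor sites, in 2 places (33.1%). The first window listed for Apoe matched none, and the third overlaps the one shown and holds the same 2 places. Among the other genes, Cubn matched an HNF4 core, CAAAGT (14.8%), and a GATA core, AGATAA (11.6%). Rbp4 matched GGGCGG and TATAAA, Amn matched GGGCGG, and Dab2 matched none. Such matches describe letters and are not binding sites.

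No gene of the set differed between Kcnh2-/- and WT past the threshold. Differences were tested with limma on log2(RPKM + 1) over 12355 genes with 1 RPKM or more in at least 2 libraries, with Benjamini-Hochberg adjustment at 0.05. Of these genes 14 were called, or 0.113%. Apoa2, Apoe, Ttr, Rbp4 and Dab2 were tested and 0 of these 5 were called. In this fit, without a replicate term, 0 had an unadjusted p under 0.05 as well. Fits with that term are described further on. Apoa1, Apob, Afp, Cubn and Amn were below the filter and have no test in this fit. Fold changes on this scale understate the change of low genes. With 2 libraries in each group, 0.333 is the smallest p that exact permutation can give.

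**Figure D1:**
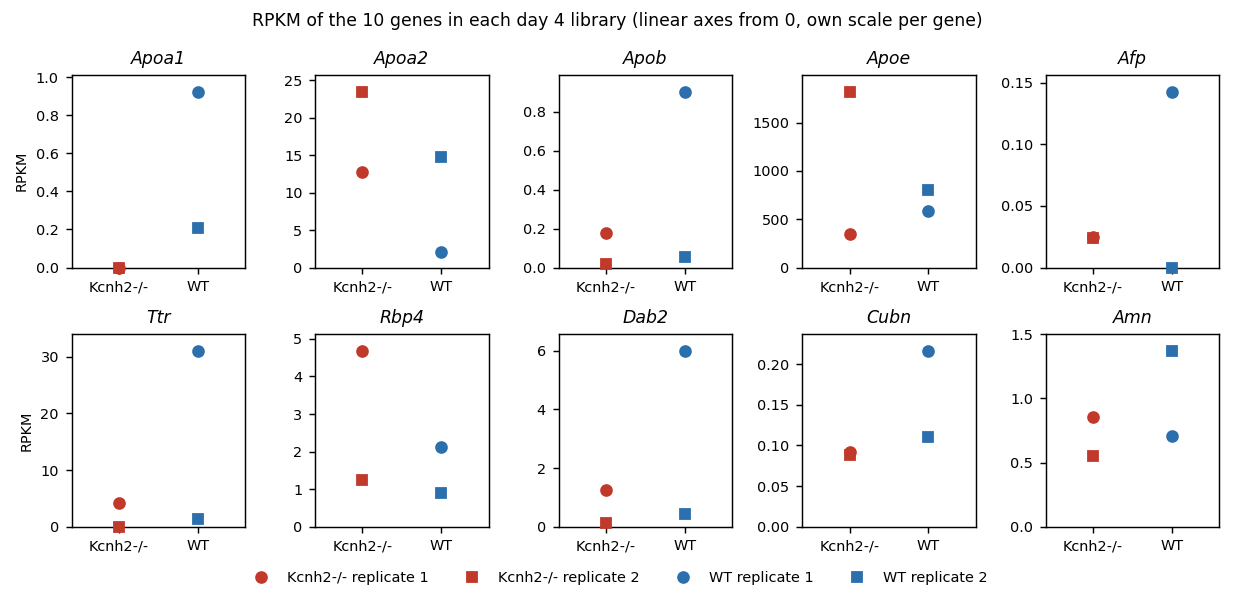
RPKM of each of the 10 genes, on the vertical axis with its own linear scale from 0, in Kcnh2-/- (red) and WT (blue); circles are replicate 1 and squares replicate 2. Of the 10 genes, 6 had their highest point in WT replicate 1, and the groups separated for Apoa1 and Cubn only.

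Ttr, the thyroid hormone and retinol-complex carrier, had the widest range of the set on the log2(RPKM + 1) scale. It was at 4.24 RPKM and a listed 0 in Kcnh2-/-, against 30.9 and 1.31 RPKM in WT. WT replicate 1 stood far above the other 3 libraries, and the groups overlapped. The difference was -1.91 ± 1.52 on the log2(RPKM + 1) scale (SE, 95% interval -5.92 to 2.11, limma adjusted p = 0.980). Within replicate 1 it was -2.61 and within replicate 2 it was -1.21, so Kcnh2-/- was the lower library in both. Without WT replicate 1 the difference was -0.0129. In bulk RNA, fewer cells of a type and less RNA per cell cannot be told apart.

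Rbp4, the retinol carrier that travels in plasma bound to transthyretin, ran the other way. It was at 4.66 and 1.26 RPKM in Kcnh2-/-, against 2.12 and 0.894 RPKM in WT. The ranges overlapped, and replicate 1 was the higher library in both genotypes. Rbp4 differed by 0.56 ± 0.60 (SE, 95% interval -1.03 to 2.15, limma adjusted p = 0.980), with 0.86 within replicate 1 and 0.25 within replicate 2. Leaving out Kcnh2-/- replicate 1 turned the sign, to -0.11. The carriers Ttr and Rbp4 thus had opposite signs in both pairs of equal number, though neither difference exceeded the spread between replicates.

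Apoe, the ligand through which the LDL receptor family takes up lipoproteins, was by far the most abundant of the 10. It was at 346 and 1816 RPKM in Kcnh2-/-, against 582 and 804 RPKM in WT, above 97.4% to 98.7% of the genes detected in each library. The Kcnh2-/- libraries held both the lowest and the highest value. The difference was 0.21 ± 0.87 (SE, 95% interval -2.08 to 2.51, limma adjusted p = 0.986), being -0.75 within replicate 1 and 1.17 within replicate 2. Without Kcnh2-/- replicate 2 it was -0.98, and without WT replicate 1 it was -0.0195.

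Apoa2, a structural protein of high-density lipoprotein, was at 12.8 and 23.4 RPKM in Kcnh2-/-, against 2.10 and 14.7 RPKM in WT. WT replicate 1 was the low library, and WT replicate 2 lay between the Kcnh2-/- values. The difference was 1.40 ± 0.87 (SE, 95% interval -0.90 to 3.69, limma adjusted p = 0.980), with 2.15 within replicate 1 and 0.64 within replicate 2. Without WT replicate 1 it was 0.22. Apoa2 lies on rn6 chromosome 13 (89597137 to 89598802), where the median over 314 tested protein-coding genes was -0.35 within replicate 2 and -0.05 within replicate 1. Chromosomes 3 and 16 had medians of -0.33 and -0.39 within replicate 2.

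The remaining apolipoproteins were close to the floor. Apoa1, the main protein of high-density lipoprotein, was listed at 0 in both Kcnh2-/- libraries, against 0.923 and 0.208 RPKM in WT. Its locus is shared with the contig-named gene AABR07070085.1, and how the authors' tools divided reads between them is not shown. Apob, the scaffold of chylomicrons and low-density lipoprotein, was at 0.180 and 0.0177 RPKM in Kcnh2-/-, against 0.902 and 0.0547 RPKM in WT. Apob was lower in Kcnh2-/- within each number, and replicate 2 was far lower than replicate 1 in both genotypes.

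**Figure D2:**
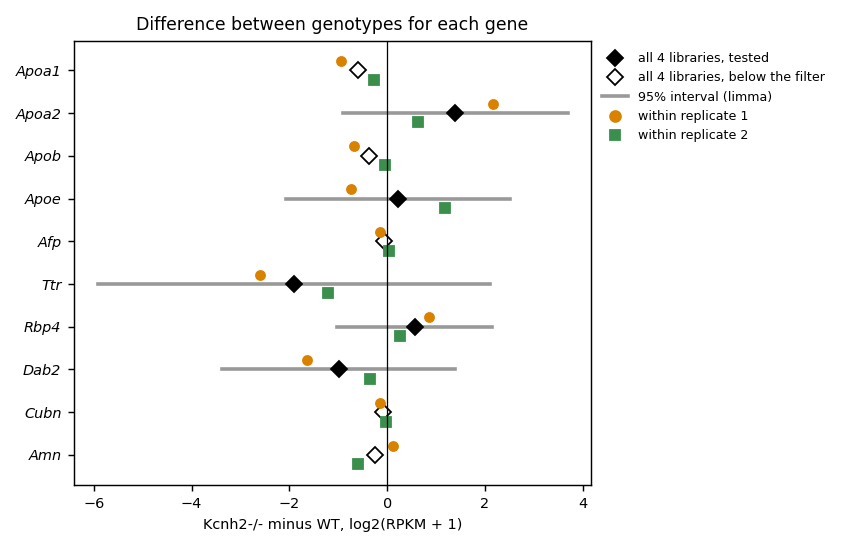
Kcnh2-/- minus WT on the log2(RPKM + 1) scale (horizontal axis) for the 10 genes. Diamonds are the group differences, filled where tested and open below the filter; grey bars are 95% limma intervals, circles and squares the differences within replicates 1 and 2. All 5 intervals, from the fit without a replicate term, cross 0, and Ttr has the widest, -5.92 to 2.11.

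Of the uptake genes, only the adaptor was tested. Dab2, whose product binds the tails of megalin and amnionless and recruits clathrin, was at 1.25 and 0.123 RPKM in Kcnh2-/-, against 5.98 and 0.432 RPKM in WT. As with Ttr, WT replicate 1 stood above the rest and the groups overlapped. The difference was -0.99 ± 0.90 (SE, 95% interval -3.37 to 1.39, limma adjusted p = 0.980), with -1.63 within replicate 1 and -0.35 within replicate 2. Without WT replicate 1 the sign turned, to 0.15.

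The receptor itself was low. Cubn, the ligand-binding subunit, was at 0.0918 and 0.0880 RPKM in Kcnh2-/-, against 0.215 and 0.110 RPKM in WT, with no overlap between groups. Amn, the membrane anchor that carries cubilin to the surface, was at 0.855 and 0.555 RPKM in Kcnh2-/-, against 0.709 and 1.36 RPKM in WT, and the groups overlapped. Amn was above Cubn in every library on this per-length scale. At such levels Cubn exceeded only 8.99% and 10.2% of the detected genes in Kcnh2-/-, and 16.8% and 10.7% in WT. The number of reads behind these values is unknown.

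For many genes of the set, libraries of different number stood farther apart than libraries of different genotype. Over all genes the split was near even, and whether the set differs from this was not tested. Of the 10 genes, 7 differed more between the numbers, averaged over genotypes, than between the genotypes, averaged over numbers, against 52.5% of the 20201 genes above 0 in at least 1 library. Of the 5 tested, 5 did, against 58.8% of the 12355 genes tested. Replicate 2 minus replicate 1 was -3.09 for Ttr, -1.65 for Dab2 and -1.02 for Rbp4, and was 1.43 for Apoe and 1.58 for Apoa2, all on the log2(RPKM + 1) scale. The exceptions were Apoa1, Cubn and Amn, which were all under 1.4 RPKM. Apob and Afp were under that level too and were not exceptions. Kcnh2-/- was lower within both numbers for 5 genes (Apoa1, Apob, Ttr, Dab2 and Cubn) and higher for 2 (Apoa2 and Rbp4), against 25.8% and 25.2% of the 20201 genes above 0 in at least 1 library. The groups did not overlap for 2, both lower in Kcnh2-/-, against 14.4% of those genes. Of the 10, 6 peaked in WT replicate 1 (28.5% of those 20201 genes did) and 2 in Kcnh2-/- replicate 2 (27.7%), and the order of the remaining libraries differed among them.

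**Figure D3:**
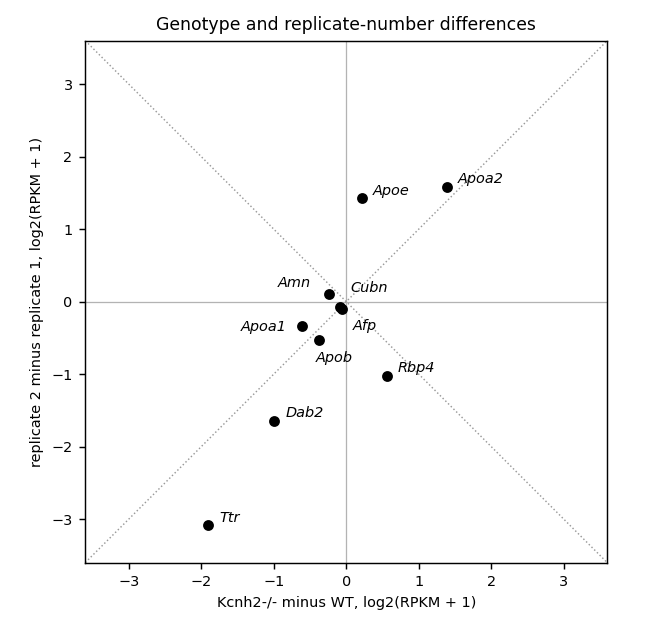
Each point is 1 gene; the horizontal axis is Kcnh2-/- minus WT and the vertical axis replicate 2 minus replicate 1, both on the log2(RPKM + 1) scale. Dotted diagonals mark equal size: Ttr, Dab2, Apoe, Apoa2 and Rbp4 lie on the side where the number difference is the larger.

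The 5 tested genes differed in their order of libraries. Over the 4 libraries, with each gene centred on its own mean, Ttr and Dab2 were the closest pair (root mean square distance 0.86 on the log2 scale), and Apoa2 and Ttr were the farthest (2.95). Apoa2 and Apoe were 1.04 apart. Among 10850 protein-coding genes, the nearest to Apoe were Gpx2 (0.11), Fndc3c1 (0.16) and Mad2l2 (0.18). Apoa2 was nearest to Rec114 (0.11), Pramef17 (0.12) and Pou5f1 (0.13), and Ttr to Greb1l and Pdlim3 (0.16 each) and Tspan12 (0.20). With 4 points and 10850 genes, near matches describe these libraries only.

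**Figure D4:**
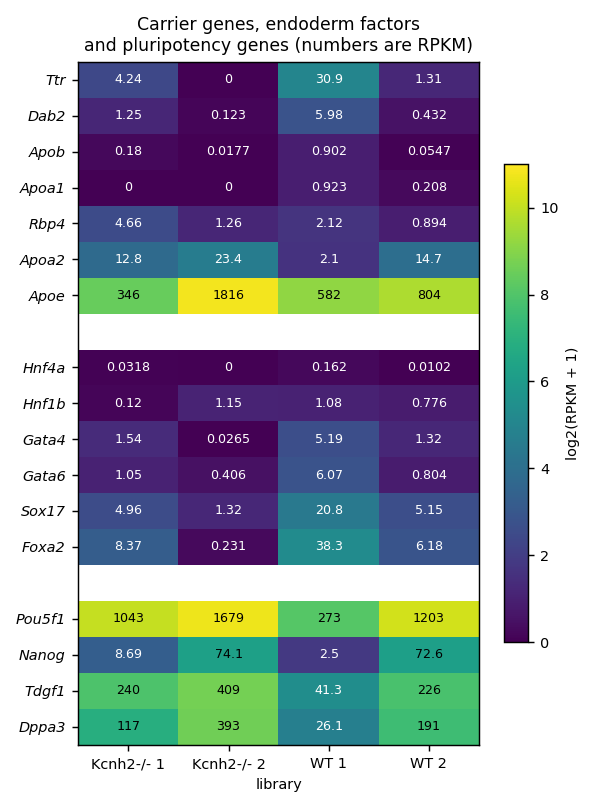
RPKM (numbers) and log2(RPKM + 1) (colour) in each library for 7 of the carrier and adaptor genes, 6 endoderm factors and 4 pluripotency genes. Ttr, Dab2, Gata4, Gata6, Sox17 and Foxa2 are all highest in WT replicate 1, where Pou5f1 is lowest, at 273 RPKM.

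Several endoderm transcription factor genes had the same high library as Ttr and Dab2. Foxa2, the forkhead pioneer factor, was at 8.37 and 0.231 RPKM in Kcnh2-/-, against 38.3 and 6.18 RPKM in WT (log2 difference -2.31, limma adjusted p = 0.980). Within replicate 2 it differed by -2.54, and the median over 804 tested protein-coding genes of its chromosome, 3, was -0.33 there. Gata6 was at 1.05 and 0.406 RPKM in Kcnh2-/-, against 6.07 and 0.804 RPKM in WT; Gata6, Gata4 and Sox17 were chosen after their values were seen. Of the 19 visceral endoderm markers tested, 0 were called, 2 were lower and 4 higher in Kcnh2-/- without overlap (15.3% and 16.7% of all tested genes), and the median difference was -0.83, against 0.01 over all genes. Leaving out WT replicate 1 gave -0.09, and leaving out Kcnh2-/- replicate 2 gave -0.29.

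Individual markers of the list did not move as a block. Krt8, a keratin of simple epithelia, was at 531 and 53.1 RPKM in Kcnh2-/-, against 1567 and 175 RPKM in WT, while its partner Krt18 was at 253 and 255 RPKM in Kcnh2-/-, against 314 and 230 RPKM in WT. Emb was at 119 and 110 RPKM in Kcnh2-/-, against 220 and 189 RPKM in WT, a separation that did not pass (limma adjusted p = 0.980). The X-linked homeobox gene Rhox5 was at 390 and 241 RPKM in Kcnh2-/-, against 70.4 and 174 RPKM in WT, with Kcnh2-/- above WT and no overlap. X-linked genes stood higher as a group, by the median given above.

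Markers of other endoderm types were mostly highest in WT replicate 1, as were 28.4% of all tested genes. Of 4 tested trophoblast markers, 1 was. The 11 tested parietal endoderm markers, of the layer that lays down Reichert's membrane and also makes Dab2, had a median difference of -0.70 (-0.09 without WT replicate 1), and 9 of the 11 were highest in WT replicate 1. Their summed level over the 17 found was 418 and 437 RPKM in Kcnh2-/-, against 771 and 374 RPKM in WT. Col4a1, a chain of basement membrane collagen, was at 18.6 and 2.98 RPKM in Kcnh2-/-, against 53.9 and 9.89 RPKM in WT. It lies on chromosome 16, where the median over 329 tested protein-coding genes was -0.39 within replicate 2 and -0.02 within replicate 1. The 10 tested definitive endoderm markers had a median of -1.16 (-0.29 without WT replicate 1), with 9 highest in WT replicate 1. Their list had sums of 402 and 370 RPKM in Kcnh2-/-, against 564 and 360 RPKM in WT. It shares genes with the visceral and anterior visceral endoderm lists, among them Foxa2 and Sfrp5, so the counts are not independent. Of 9 tested anterior visceral endoderm markers, 7 were lower and 2 higher, with a median of -1.24 (-0.39 without WT replicate 1), yet the sum over the 11 found was 185 and 266 RPKM in Kcnh2-/-, against 192 and 265 RPKM in WT. Lefty1, an inhibitor of Nodal signalling and the most abundant of them, was at 100 and 240 RPKM in Kcnh2-/-, against 27.4 and 190 RPKM in WT. Cer1, a secreted antagonist of Nodal, was at 21.4 and 0.144 RPKM in Kcnh2-/-, against 52.2 and 28.8 RPKM in WT. None of these markers was called, and their part in the Ttr and Dab2 values was not tested.

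Pou5f1 and the marker Dppa3 ranked the libraries as Apoa2 did, with WT replicate 1 lowest and Kcnh2-/- replicate 2 highest. The summed level of the 11 pluripotency markers found was 1478 and 2712 RPKM in Kcnh2-/-, against 394 and 1854 RPKM in WT. The median difference over 10 tested was 0.75, with 1.53 within replicate 1 and 0.23 within replicate 2, and it turned to -0.71 when WT replicate 1 was left out and to -0.06 when Kcnh2-/- replicate 2 was. Dppa3 was at 117 and 393 RPKM in Kcnh2-/-, against 26.1 and 191 RPKM in WT. Of the 10 macrophage markers found, genes of a cell type that also makes Apoe, 8 were under 1 RPKM throughout. Their sum was 3.52 and 3.08 RPKM in Kcnh2-/-, against 1.48 and 3.96 RPKM in WT, and Tyrobp and Trem2 were listed at 0 in all 4 (named after their values were seen).

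Apoe and Apoa1 each sit in a cluster of apolipoprotein genes, and their neighbours differed in level by orders of magnitude. Apoe (rn6 chromosome 1, 80612894 to 80617057) lies 2.97 kb from Apoc1, which encodes a small exchangeable apolipoprotein. Apoc1 was at 46.0 and 283 RPKM in Kcnh2-/-, against 10.1 and 107 RPKM in WT. Both genotypes had more in replicate 2, Kcnh2-/- was the higher library in both numbers, and the groups overlapped. Its difference of 1.73 did not pass (limma adjusted p = 0.980), being 2.08 within replicate 1 and 1.39 within replicate 2, so Apoc1 kept its sign in both numbers where Apoe did not.

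Farther along the same cluster expression was low. Apoc4 was listed at 0 and at 2.58 RPKM in Kcnh2-/-, against 0.255 and 0.508 RPKM in WT, and Apoc2, the cofactor of lipoprotein lipase, was listed at 0 and at 0.232 RPKM in Kcnh2-/-, against 0.284 RPKM and a listed 0 in WT. On the other side of Apoe, the mitochondrial import gene Tomm40 was at 137 and 155 RPKM in Kcnh2-/-, against 97.4 and 113 RPKM in WT. In the Apoa1 cluster (rn6 chromosome 8, Apoa1 at 50525090 to 50526875), Apoc3, Apoa4 and Apoa5 stayed under 0.7 RPKM in every library, while Zfp259, 36.2 kb from Apoa1, was at 62.7 and 61.1 RPKM in Kcnh2-/-, against 41.2 and 42.9 RPKM in WT. These neighbours were named after their values were seen.

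**Figure D5:**
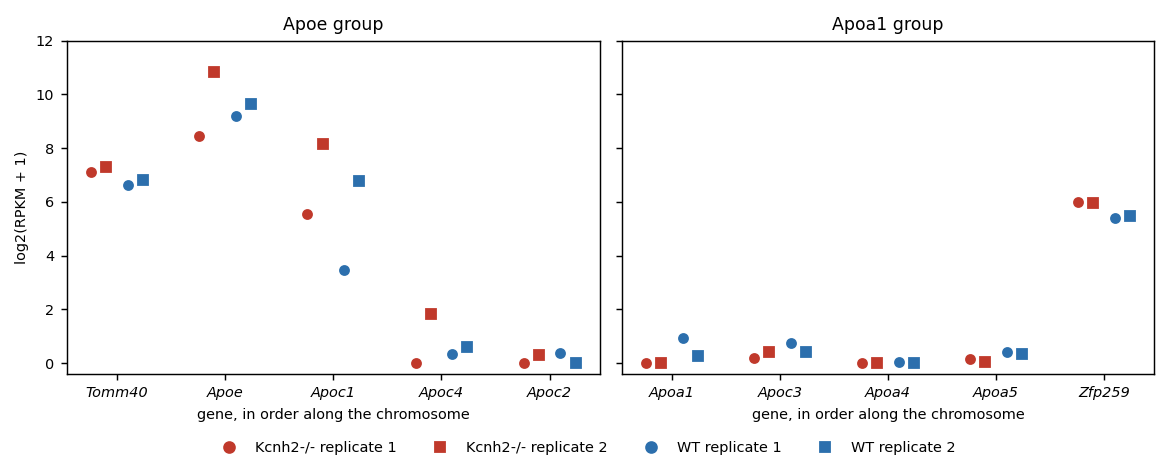
log2(RPKM + 1) (vertical axis) of genes around Apoe (left) and Apoa1 (right) in order along the chromosome; red is Kcnh2-/-, blue WT, circles replicate 1 and squares replicate 2. Apoe and Apoc1 are high and spread, while Apoa1, Apoc3, Apoa4 and Apoa5 are near 0 beside the expressed Zfp259.

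Lipoprotein assembly genes were uneven in level. Mttp, the transfer protein that loads lipid onto apolipoprotein B, was at 0.234 and 0.449 RPKM in Kcnh2-/-, against 0.280 and 0.215 RPKM in WT (named after its values were seen). Its chaperone subunit P4hb, which every cell uses for folding, was at 342 and 339 RPKM in Kcnh2-/-, against 347 and 230 RPKM in WT. Of 15 tested genes of this list 0 were called, 8 were lower and 7 higher, with a median of -0.24 that changed sign when WT replicate 2 (0.22) or Kcnh2-/- replicate 1 (0.17) was left out. The cholesterol exporter Abcg1 was at 1.97 and 0.251 RPKM in Kcnh2-/-, against 4.98 and 0.858 RPKM in WT.

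Other plasma protein genes were mostly low. Of 23 found, 17 were under 1 RPKM in all 4 libraries, and 5 were tested with 0 called and a median of -0.12 (0.10 without WT replicate 1). Alb, the neighbour of Afp, reached at most 0.0470 RPKM (named after its values were seen). Tf, the iron carrier transferrin, was at 13.8 and 11.1 RPKM in Kcnh2-/-, against 13.2 and 11.5 RPKM in WT, with little spread. Ctsl, a lysosomal protease abundant in visceral endoderm, was at 306 and 460 RPKM in Kcnh2-/-, against 457 and 362 RPKM in WT.

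Retinoid genes, the setting in which Rbp4 and Ttr work, included some with the highest library of Ttr. Of 11 tested 0 were called, 3 were lower in Kcnh2-/- without overlap (15.3% of all tested genes), and the median was -0.48, or -0.04 without WT replicate 1. Cyp26a1, which degrades retinoic acid and is induced by it, was at 14.1 and 2.14 RPKM in Kcnh2-/-, against 47.3 and 6.07 RPKM in WT. Crabp1 was at 24.7 and 175 RPKM in Kcnh2-/-, against 12.8 and 169 RPKM in WT, the reverse order of replicates. The receptor gene Rarg separated by genotype, at 2.90 and 1.50 RPKM in Kcnh2-/-, against 6.02 and 6.57 RPKM in WT (log2 difference -1.22, limma adjusted p = 0.980).

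The general machinery of uptake was expressed in every library, with no call between genotypes. Of 33 tested adaptor and coat genes 0 were called and the median difference was -0.03. Cltc, the clathrin heavy chain, was at 122 and 114 RPKM in Kcnh2-/-, against 137 and 114 RPKM in WT, and Ap2m1, of the clathrin adaptor AP-2, was at 181 and 161 RPKM in Kcnh2-/-, against 212 and 121 RPKM in WT. Myo6, the motor that works with Dab2 at coated pits, was the gene of that list with the largest difference, at 4.90 and 2.61 RPKM in Kcnh2-/-, against 16.0 and 7.26 RPKM in WT (log2 difference -1.36, limma adjusted p = 0.980).

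Among 19 other uptake receptors tested, 0 were called, 5 were lower and 1 higher in Kcnh2-/- without overlap (15.3% and 16.7% of all tested genes), and the median was -0.21, or 0.04 without WT replicate 1. Lrp2, or megalin, the receptor that works beside cubilin, was at 7.10 and 5.60 RPKM in Kcnh2-/-, against 9.82 and 12.1 RPKM in WT, without overlap (named after its values were seen; limma adjusted p = 0.980); it too lies on chromosome 3. Lrp2 was thus above Cubn in all 4 libraries per length. Folr1, a folate receptor, was at 51.3 and 111 RPKM in Kcnh2-/-, against 9.01 and 65.6 RPKM in WT, with WT replicate 1 low as for Apoa2. Lrpap1, the chaperone of these receptors, was at 38.7 and 26.2 RPKM in Kcnh2-/-, against 145 and 23.4 RPKM in WT, a value set apart by WT replicate 1 alone.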

How the data were processed

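Per the labels' protocols, ribosomal RNA was removed from total RNA, and stranded libraries were read as paired ends. The deposited values are RPKM per gene, made by the authors with TopHat2 2.0.13 and Cufflinks 2.2.1 on rn6, per the submitters' processing notes; the annotation, and whether strand was used in counting, are not given in the sources used here. All 4 tables were joined by gene identifier. Tests used limma 3.58.1 in R 4.3.3 (lmFit; two-sided eBayes, trend on) after log2(RPKM + 1), without a replicate term, for the 12355 genes that reached 1 RPKM in 2 libraries or more. Absolute depth cannot be derived from these RPKM. Lists are described by counts and medians. Protein-coding genes were taken by symbol or synonym from RefSeq (GRCr8). On simulated data the fit recovered known changes at a small spread without a number effect. It recovered none with the number effect of the real libraries and a spread derived from theirs, scaled down and shuffled among genes. There a fit with a replicate block recovered part of the largest changes, with 3 false calls. Changes, of 1 to 4 log2 units, were set only in genes of higher mean level. Named genes could be the members, Kcnh2, the 4 most abundant and the 2 most different genes of each list, and the 3 genes nearest to each of the 3 most abundant members; exceptions are stated. Not every gene that this rule allows is reported here. The members and lists were chosen with earlier results of these data known. Alternatives covered pseudocount, filter, scaling, variance model, gene set, replicate block and each library left out; leaving libraries out of list medians was added after seeing the data. Python 3.11.15, pandas 2.3.3 and matplotlib 3.10.9 made tables and plots.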

Additional observations from a re-analysis of the deposited data

How the results depend on the processing

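None of the 5 tested genes was called under any of the 14 alternatives in which it was tested. The fit without the filter tested all 10 genes and called 0. Of the 67 alternative values of those 5, 62 kept their sign. Apoe turned to -0.20 with quantile normalization. Leaving out each library in turn gave -0.98 to 1.41 for Apoe, -0.11 to 1.22 for Rbp4, -2.13 to 0.15 for Dab2, -3.80 to -0.0129 for Ttr and 0.22 to 2.57 for Apoa2; the lone library left in a group is then assumed to vary like the others. The count of genes called, 14, became 3 with a pseudocount of 5, 3 without the variance trend, 3 over protein-coding genes alone and 1 without the filter, and 10 to 16 with a library left out.

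With the replicate block the count was 28. The unadjusted limma p was then 0.00669 for Ttr, 0.0230 for Apoa2, 0.0626 for Dab2, 0.156 for Rbp4 and 0.680 for Apoe. Over protein-coding genes with that block the count was 82, and the lowest limma adjusted p of the 5 was 0.0946 (Ttr). Unadjusted, limma gave 0.00123, 0.00699, 0.0330, 0.141 and 0.594 there, in the same order of genes. In that last fit, among genes of the lists, Apoc1 (limma adjusted p = 0.0265), Foxa2 (0.0237), Krt8 (0.0152), Cxcr4 (0.0112) and Tmprss2 (0.0475) passed. Replicate 2 minus replicate 1 in Kcnh2-/- and in WT correlated across the 12355 genes with r = 0.38, and across the 10850 protein-coding genes with r = 0.58; genes are not independent, and no label gives a pairing. The cause of these changes was not tested. With 2 libraries a group, depth unknown and 5 of the 10 genes under the filter, differences of the low genes were not detectable. The limit was not confined to low genes. With the number effect and spread simulated above, the main fit recovered 0% of changes of 1 to 4 log2 units in genes of higher level.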

Other observations

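Igf2, the fetal growth factor that endoderm and mesoderm secrete, had a peak in a single library. It was at 2.98 and 2.46 RPKM in Kcnh2-/-, against 70.2 and 2.31 RPKM in WT. Embryonic globins, which mark the first blood cells of the yolk sac that visceral endoderm lines, had the same library on top: Hbg1 was at 1.56 and 0.135 RPKM in Kcnh2-/-, against 16.3 RPKM and a listed 0 in WT, and Hbe1 was at 0.602 and 0.150 RPKM in Kcnh2-/-, against 3.34 and 0.148 RPKM in WT. The X-linked factor Gata1 did not share it, at 2.11 and 2.59 RPKM in Kcnh2-/-, against 0.153 and 0.186 RPKM in WT (limma adjusted p = 0.980). Of 7 erythroid markers found, 4 were tested and 0 were called.

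Matrix genes of fibroblasts, a cell type often used as a feeder layer, were low apart from Fbln1. Col3a1 was at 1.44 and 0.0454 RPKM in Kcnh2-/-, against 9.41 RPKM and a listed 0 in WT, and Postn was at 0.242 and 0.0427 RPKM in Kcnh2-/-, against 6.49 and 0.234 RPKM in WT. Fbln1 was at 17.7 and 80.0 RPKM in Kcnh2-/-, against 32.0 and 55.9 RPKM in WT. Among trophoblast markers Tpbpa and Prl2c1, named after their values were seen, were listed at 0 in all 4 libraries; Fgfr2 was at 1.89 and 0.399 RPKM in Kcnh2-/-, against 12.6 and 2.16 RPKM in WT. Of the 8 neural markers found, 5 were under 1 RPKM throughout, with Tubb3 at 17.9 and 16.2 RPKM in Kcnh2-/-, against 44.6 and 11.8 RPKM in WT. None of the tested genes of these lists was called.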
